A study of Homo sapiens with 29 samples.

Results

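The CDK inhibitors and pocket proteins were 10 genes: the CIP/KIP inhibitors CDKN1A, CDKN1B and CDKN1C, the INK4 inhibitors CDKN2A, CDKN2B, CDKN2C and CDKN2D, and the pocket proteins RB1, RBL1 and RBL2. They were selected by name from the 22439 genes that the array could name, and the selection was made on their log2 levels across all 10 groups, with the rise of CDKN1C at 24 h in view. All 10 had a probe among the 18398 genes tested. The cells were LHCN-M2, a line of human myoblasts kept dividing by added telomerase and CDK4, so every group carried added CDK4, the kinase that the INK4 inhibitors bind. They received 20 nM of nontargeting siRNA (siControl) or of siRNA against ZNF148 (siZNF148), a zinc finger transcription factor. RNA was taken at 24 h (subconfluent), 48 h and 96 h (both confluent) in growth media, and at 48 h and 96 h in DIFF media (differentiation media), which gave 29 arrays: 3 per group, except for siControl at 96 h in growth media with 2. Per the methods, DIFF media replaced growth media 2 days after transfection, and cells were taken after 48 h or 96 h in either medium, while the labels give those hours as time after transfection, so a growth and a DIFF array of equal hours may not be equally long past transfection. The labels call the arrays of a group biological replicates without saying what was repeated, so p-values measure the spread between these arrays.

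Cells pass from G1 to S phase when cyclin-dependent kinases (CDKs) phosphorylate the pocket proteins, which then release E2F transcription factors. INK4 proteins bind CDK4 and CDK6, CIP/KIP proteins bind cyclin-CDK complexes more broadly, and both thereby keep the pocket proteins in the state that represses E2F target genes. Myoblasts leave the cell cycle before they build muscle proteins, and CDKN1A, CDKN1C and RB1 are known for their part in that exit.

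A value below is a log2 signal: the background-subtracted brightness of a probe, quantile-normalized over all arrays. Levels of different probes are not compared. A difference was called past the threshold at an adjusted p under 0.05 in limma's test over all probes and a change of over 2-fold. Every main probe of the 10 genes was well above background and below saturation on all 29 arrays. The ZNF148 probe was lower on every siZNF148 array than on every siControl array of the same condition, with differences from -1.53 at 24 h to -2.74 at 96 h in DIFF media. All arrays at 24 h shared 1 slide and the others lay on 3 further slides, so 24 h and later times were not tested against each other. Of the siControl arrays at 48 h in growth media, replicate 1 stood apart from the other two: the mean log2 level of 4 markers of differentiated muscle (MYOG, CKM, TNNC2 and MYH3) ranged from 7.04 to 14.96 within that group and was highest on replicate 1, and what the results at 48 h were without it is given at the calls that rest on it and in a paragraph of its own. All 5 myoblast markers (MYF5, MYOD1, DES, CDH15 and NCAM1) were well above background on all arrays. Of 8 markers of endothelial, leukocyte, fat and epithelial cells, 7 had a tested probe. EPCAM and CDH1 were not well above background on any siControl array.

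Promoters of 4 members that moved in different directions are shown, from 250 bases before to 50 bases after the start, as RefSeq gives them for GRCh38.p14. Capitals mark matches on either strand to the E2F-type letters TTTCGCGC or TTTGGCGC, to the CAGCTG form of the E-box bound by myogenic factors, or to the GC box GGGCGG. The CHR element TTTGAA was searched as well.
RBL1, chr20:37095948-37096247, minus strand: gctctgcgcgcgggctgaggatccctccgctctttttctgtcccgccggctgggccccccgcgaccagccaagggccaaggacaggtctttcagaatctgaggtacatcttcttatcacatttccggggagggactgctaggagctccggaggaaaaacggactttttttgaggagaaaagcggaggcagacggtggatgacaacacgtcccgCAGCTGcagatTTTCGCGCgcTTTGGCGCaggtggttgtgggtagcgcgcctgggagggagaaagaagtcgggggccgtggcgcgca
CDKN2C, chr1:50968456-50968755, plus strand: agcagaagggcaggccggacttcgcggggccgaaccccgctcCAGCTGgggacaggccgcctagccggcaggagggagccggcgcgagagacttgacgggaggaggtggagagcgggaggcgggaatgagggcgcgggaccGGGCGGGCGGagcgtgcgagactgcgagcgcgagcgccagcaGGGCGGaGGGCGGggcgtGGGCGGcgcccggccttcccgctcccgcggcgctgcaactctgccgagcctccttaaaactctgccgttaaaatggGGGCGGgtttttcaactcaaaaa
CDKN2D, chr19:10568930-10569229, minus strand: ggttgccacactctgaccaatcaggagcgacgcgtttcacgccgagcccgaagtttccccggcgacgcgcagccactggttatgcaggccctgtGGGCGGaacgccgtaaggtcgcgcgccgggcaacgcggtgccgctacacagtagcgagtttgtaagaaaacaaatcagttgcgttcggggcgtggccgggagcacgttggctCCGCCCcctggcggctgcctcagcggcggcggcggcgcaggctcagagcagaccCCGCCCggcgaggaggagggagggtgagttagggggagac
CDKN1A, chr6:36678464-36678763, plus strand: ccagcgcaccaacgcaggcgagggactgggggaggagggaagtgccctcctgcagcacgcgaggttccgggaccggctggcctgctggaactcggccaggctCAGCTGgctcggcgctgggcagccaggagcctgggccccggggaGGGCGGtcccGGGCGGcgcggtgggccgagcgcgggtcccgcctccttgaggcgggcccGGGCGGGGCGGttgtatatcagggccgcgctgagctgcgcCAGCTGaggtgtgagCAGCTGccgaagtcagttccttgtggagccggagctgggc

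The RBL1 promoter held 1 match to each E2F-type motif and 1 to the E-box. Of 35116 promoters of 300 bases, 0.515% held TTTCGCGC, 0.652% held TTTGGCGC, 17.9% held the E-box, 45% held the GC box and 15.2% held the CHR element, which had no match in the 4 shown. Of the 3 promoters listed for CDKN2C, the one with the most GC box matches was shown, so its count was favoured by that choice. It held 6 matches to the GC box and 1 to the E-box. The others held 0 and 1 matches to the GC box and 0 to the E-box. The CDKN2D promoter held 3 matches to the GC box, and that of CDKN1A held 4, together with 3 to the E-box. GC box matches overlapped each other in CDKN1A and in CDKN2C. The 4 were picked by name, while 13 promoters of 9 members were searched, and CDKN1C had none listed. E2F-type matches were found in RBL1 only. Of those not shown, CDKN1B held 1 GC box match, CDKN2B held 2 and 1 E-box, and RB1 held no match. The 2 CDKN2A promoters held 2 and 0 GC boxes. The 2 RBL2 promoters held 2 and 0 GC boxes, 0 and 1 E-boxes, and 1 and 0 CHR elements. A match describes these letters only.

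CDKN1C encodes p57, a CIP/KIP inhibitor that is expressed from the maternal copy of an imprinted region on chromosome 11. It had the widest range of the 10 genes, with group means from 8.60 to 17.67. At 24 h in growth media its level was 8.56, 8.61 and 8.64 on the siControl arrays and 11.99, 12.11 and 11.79 on the siZNF148 arrays. This difference of 3.36 was among the values that chose the members, so it is given as a description, without a test. It belongs to the same description that CDKN1C was the 1 of 10 members past the threshold there, upward, where 2.46% of all genes tested were higher and 3.08% lower, and nothing is read from that count.

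At 48 h in growth media CDKN1C stood at 15.70, 11.56 and 11.44 on the siControl arrays and at 17.11, 17.08 and 17.07 on the siZNF148 arrays. The groups did not overlap, and the siControl array that stood apart was the one nearest to the knockdown. The difference was 4.18 (SE 0.641, 18.2-fold, limma adjusted p = 1.1e-05), and 5.58 without that array. Within slides it was 1.38 on the slide of that array and 5.50 and 5.67 on the others. With the methods' t-test and Benjamini-Hochberg adjustment the difference missed the threshold (adjusted p = 0.0956). At 96 h the siControl arrays read 13.75 and 13.82 and the siZNF148 arrays 16.94, 16.92 and 16.94, a rise of 3.14 (SE 0.717, limma adjusted p = 0.000969). On the slide that held arrays of both groups at 96 h, the difference was 3.13.

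In DIFF media the knockdown moved CDKN1C far less. At 48 h the siControl arrays read 15.55, 15.05 and 14.43 and the siZNF148 arrays 15.33, 15.16 and 15.09, so that the groups overlapped. The difference was 0.18, with a 95% confidence interval from -1.16 to 1.52. At 96 h the order of the groups turned: 17.62, 17.64 and 17.76 with siControl against 16.55, 16.54 and 16.53 with siZNF148. The difference of -1.13 had an adjusted p of 0.159 in the limma fit over all arrays, where the siControl array that stood apart widened the spread of CDKN1C, and of 5.8e-06 in the fit of the other 28 arrays. Within slides that difference was -1.10 and -1.22.

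In siControl cells CDKN1C had a higher mean in DIFF than in growth media. The rise was 2.12 at 48 h (SE 0.641, limma adjusted p = 0.011), from overlapping groups. It was 3.51 without the siControl array that stood apart, and it missed the threshold without replicate 2 (1.45) or replicate 3 (1.38) of the same group or without replicate 1 in DIFF media (1.85). The rise of 2.12 also missed it in limma with the compared arrays alone (adjusted p = 0.29) or the replicate number as a block (adjusted p = 0.21). The methods' t-test gave an unadjusted p of 0.215, and 0.398 with Benjamini-Hochberg adjustment. On the slide of the array that stood apart the sign was turned, at -1.26, against 3.99 and 3.62 on the other slides. At 96 h the rise was 3.89 (SE 0.717, limma adjusted p = 0.000177) and the groups did not overlap. The siZNF148 difference in DIFF minus that in growth media was -4.00 at 48 h (SE 0.907, limma adjusted p = 0.00142) and -4.28 at 96 h (SE 0.962, adjusted p = 0.00214). Without the array that stood apart the value at 48 h was -5.40, and in a fit of the 4 groups at 48 h alone it missed the threshold (adjusted p = 0.0535). Ordered by mean, siControl at 96 h in DIFF media was highest, followed by siZNF148 at 48 h and 96 h in growth media, siZNF148 at 96 h and 48 h in DIFF media, siControl at 48 h in DIFF media, siControl at 96 h and 48 h in growth media, and siZNF148 and siControl at 24 h. Neighbours overlapped in that order between siZNF148 and siControl at 48 h in DIFF media, between siControl at 96 h and at 48 h in growth media, and between the latter and siZNF148 at 24 h.

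CDKN1A encodes p21, a CIP/KIP inhibitor and a known target of p53 and of MYOD. At 96 h in growth media it read 9.53 and 9.58 with siControl and 11.56, 11.15 and 11.49 with siZNF148. At 48 h in DIFF media the siControl arrays were at 10.02, 9.56 and 9.47 and the siZNF148 arrays at 10.86, 10.93 and 10.68. At 96 h in DIFF media they were at 10.17, 9.80 and 10.50 and at 11.76, 11.92 and 11.70. In each of these conditions every siZNF148 array lay above every siControl array. CDKN1A rose by 1.84 at 96 h in growth media (SE 0.182, 3.59-fold, limma adjusted p = 3.24e-08), by 1.14 at 48 h in DIFF media (SE 0.163, adjusted p = 3.15e-06) and by 1.64 at 96 h in DIFF media (SE 0.163, adjusted p = 2.77e-08). The difference at 48 h in growth media was 0.51, under the fold limit. At 24 h the arrays read 10.87, 10.84 and 10.77 with siControl against 10.18, 10.19 and 10.29 with siZNF148, a difference of -0.61 that is described only. Between media in siControl cells CDKN1A differed by -0.39 at 48 h and by 0.60 at 96 h, neither past the threshold. Its siZNF148 difference in DIFF minus that in growth media was 0.63 at 48 h and -0.21 at 96 h, with a 95% confidence interval from -0.72 to 0.30 at the later time.

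CDKN1B encodes p27, which holds cyclin E and cyclin A complexes inactive and is degraded through SKP2. Its siZNF148 differences were 0.58 and 0.09 at 48 h and 96 h in growth media and 0.55 and 0.48 in DIFF media. None passed the fold limit. Its second probe gave 0.44, 0.10, 0.49 and 0.17, and at 24 h, described only, the probes gave 0.83 and 0.78. Media differed by 0.20 and 0.02 in siControl cells.

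**Figure D1:**
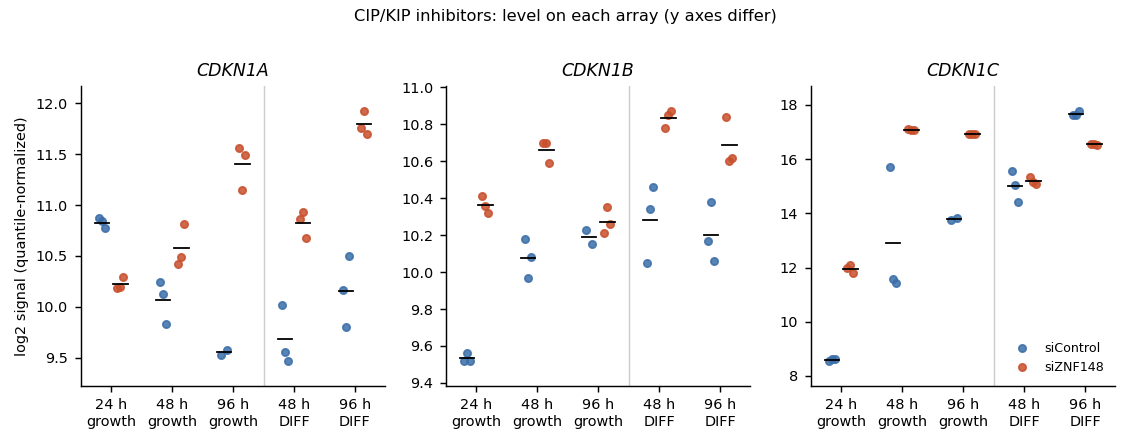
Log2 signal (y axis, a separate scale in each panel) of the 3 CIP/KIP inhibitors by condition (x axis). Each point is an array, blue for siControl and red for siZNF148, and black lines are group means. CDKN1C spans 8.56 to 17.76, and its siControl points at 48 h in growth media include the array at 15.70, far above those at 11.56 and 11.44.

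CDKN2A, which codes for p16 INK4A and, from another reading frame, p14 ARF, was lower with siZNF148 in every condition after 24 h. Its levels were 15.62, 16.08 and 15.96 with siControl against 14.90, 14.86 and 14.96 with siZNF148 at 48 h in growth media, and 16.05 and 16.15 against 14.90, 14.86 and 15.09 at 96 h. In DIFF media they were 15.57, 15.47 and 15.34 against 14.61, 14.40 and 14.43 at 48 h, and 15.57, 15.49 and 15.50 against 14.39, 14.51 and 14.35 at 96 h. The groups overlapped in none of the 4 conditions. CDKN2A changed by -1.15 at 96 h in growth media (SE 0.106, limma adjusted p = 1.18e-08) and by -1.11 at 96 h in DIFF media (SE 0.0948, adjusted p = 2.86e-09). At 48 h the differences of -0.98 in both media lay just inside the 2-fold limit. In growth media at 48 h the second CDKN2A probe passed it at -1.04, as did the main probe without the siControl array that stood apart (-1.11). The fall at 96 h in DIFF media missed the fold limit when arrays were scaled to the 75th percentile (-0.95). The siZNF148 differences in DIFF minus growth media were 0.00 and 0.04, with 95% confidence intervals from -0.28 to 0.27 and from -0.25 to 0.34. The probe sequences were not used here, so the signal was not assigned to either protein.

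CDKN2B, which codes for p15, lies beside CDKN2A on chromosome 9. Its level stayed between 5.89 and 7.12 over all arrays. The siZNF148 differences after 24 h were 0.52, 0.71, 0.45 and 0.37, without overlap between the groups in any of these 4 conditions, and none passed the fold limit.

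CDKN2C, which codes for p18, read 11.91 and 11.89 with siControl and 10.29, 10.23 and 10.38 with siZNF148 at 96 h in growth media. It fell by 1.60 there (SE 0.09, 3.03-fold, limma adjusted p = 6.76e-12). At 48 h in DIFF media it read 11.76, 11.88 and 12.05 against 10.87, 10.88 and 10.90, and fell by 1.01 (SE 0.0805, adjusted p = 4.58e-10). The latter fall was just past the fold limit, and it missed it with 75th percentile scaling (-0.81), with normexp background correction (-0.95) and without siControl replicate 3 (-0.94). The differences were -0.76 at 48 h in growth media and -0.73 at 96 h in DIFF media. Between media in siControl cells the differences were 0.25 at 48 h and -0.83 at 96 h.

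CDKN2D, which codes for p19, had siZNF148 differences of opposite sign in the 2 media. In growth media at 96 h it read 12.52 and 12.51 with siControl and 11.17, 11.43 and 11.25 with siZNF148, a difference of -1.23 (SE 0.0879, limma adjusted p = 2.64e-10). In DIFF media at 48 h it read 9.97, 9.97 and 9.83 with siControl and 11.70, 11.65 and 11.83 with siZNF148, a rise of 1.80 (SE 0.0786, 3.49-fold, adjusted p = 2.84e-14). The groups were apart in both conditions, and in opposite order. The difference was -0.71 at 48 h in growth media and at 96 h in DIFF media 0.60, with the groups again apart. Within slides the difference at 48 h in DIFF media was 1.87, 1.68 and 1.86.

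Between media the siControl level of CDKN2D changed by -2.34 at 48 h (SE 0.0786, limma adjusted p = 1.51e-15) and by -1.76 at 96 h (SE 0.0879, adjusted p = 2.13e-12). The siZNF148 arrays did not share this fall: they read 11.53, 11.62 and 11.51 in growth media and 11.70, 11.65 and 11.83 in DIFF media at 48 h. The siZNF148 difference in DIFF minus that in growth media was 2.51 at 48 h (SE 0.111, limma adjusted p = 5.9e-13) and 1.83 at 96 h (SE 0.118, adjusted p = 4.73e-10). Over all groups the level of CDKN2D was highest in siControl at 96 h in growth media (mean 12.52) and lowest in siControl at 48 h in DIFF media (mean 9.92).

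**Figure D2:**
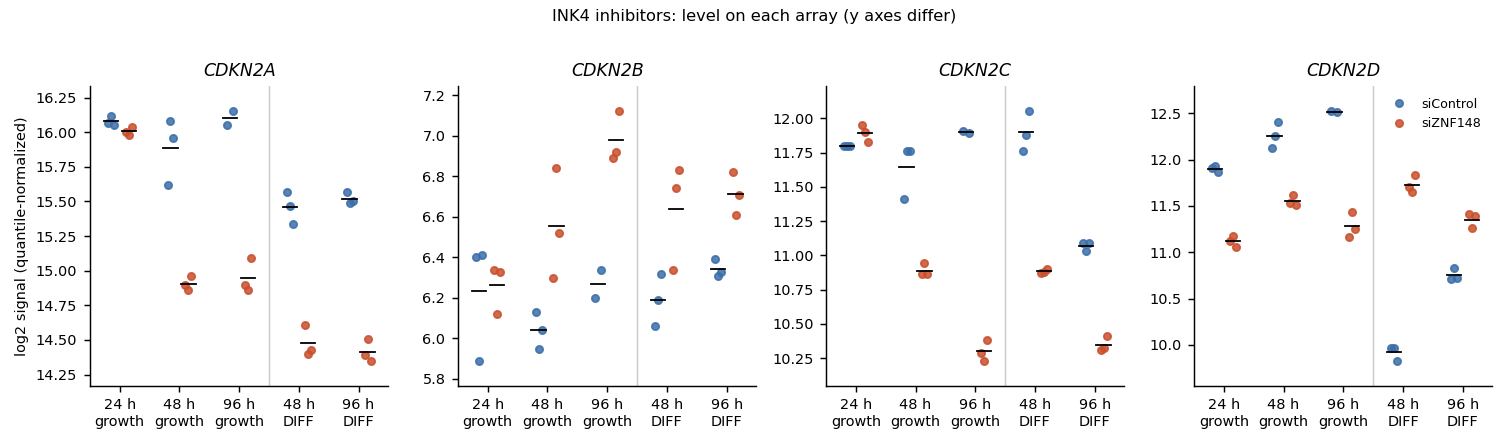
Log2 signal (y axis, a separate scale in each panel) of the 4 INK4 inhibitors by condition (x axis). Points are arrays, blue for siControl and red for siZNF148, and black lines are group means. Red lies below blue for CDKN2A and CDKN2C after 24 h, while for CDKN2D red lies below blue in growth media and above it in DIFF media.

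RBL1, the pocket protein p107, is itself a known E2F target and its transcript is most abundant in dividing cells. At 48 h in growth media it read 7.91, 8.44 and 8.73 with siControl and 5.86, 5.82 and 5.96 with siZNF148. At 96 h it read 8.42 and 8.71 against 6.02, 5.58 and 5.79. Every siZNF148 array was below every siControl array at both times. RBL1 changed by -2.48 at 48 h (SE 0.192, 5.57-fold lower, limma adjusted p = 8.62e-10) and by -2.77 at 96 h (SE 0.214, 6.81-fold lower, adjusted p = 9.03e-10). Without the siControl array that stood apart the difference at 48 h was -2.70, and with normexp background correction it was -1.61. At 24 h, as a description, the groups overlapped, from 8.62 to 8.67 with siControl and from 8.54 to 8.62 with siZNF148.

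The siControl cells in DIFF media also had low RBL1 levels, which read 5.88, 6.25 and 6.47 at 48 h and 5.44, 6.00 and 5.34 at 96 h. From growth to DIFF media RBL1 changed by -2.16 at 48 h (SE 0.192, limma adjusted p = 6.28e-09) and by -2.97 at 96 h (SE 0.214, adjusted p = 5.79e-10), the latter at -1.96 with normexp. The siZNF148 arrays in DIFF media read 5.36, 5.42 and 5.80 at 48 h, a difference of -0.67 from siControl, and 5.68, 5.42 and 5.68 at 96 h, a difference of 0.00 with a 95% confidence interval from -0.40 to 0.40. The siZNF148 difference in DIFF minus growth media was 1.81 at 48 h (SE 0.271, limma adjusted p = 1.72e-05) and 2.77 at 96 h (SE 0.288, adjusted p = 4.06e-07). In the order of the group means the top 4 were both groups at 24 h and siControl at 96 h and 48 h in growth media, and each overlapped the next of them. The 6 other groups followed at or below 6.20, again with each overlapping the next, and the array ranges of the 4 and the 6 did not overlap.

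A second RBL1 probe was not well above background on any siZNF148 array in growth media after 24 h, nor on any siControl array in DIFF media. Against the lowest signal well above background on each array, the RBL1 signal with siZNF148 was lower there by a factor of at least 2.3 at 48 h and at least 4.84 at 96 h. The same probe was at least 2.74-fold and 3.76-fold lower in DIFF than in growth media of siControl cells.

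RBL2, the pocket protein p130, is known to be the main E2F repressor of resting cells. It was lower with siZNF148 in all 4 conditions after 24 h, without overlap, and passed the threshold in 1. At 48 h in DIFF media it read 9.57, 9.71 and 9.61 with siControl and 8.11, 8.12 and 8.01 with siZNF148, a difference of -1.54 (SE 0.105, 2.91-fold, limma adjusted p = 3.77e-11). The other differences were -0.70 and -0.55 in growth media and -0.64 at 96 h in DIFF media. Media differed by 0.34 and -0.10 in siControl cells. The siZNF148 difference of RBL2 in DIFF minus growth media was -0.84 at 48 h (SE 0.149, limma adjusted p = 0.000116), under the fold limit.

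RB1, the retinoblastoma protein, varied least but for CDKN2B, with group means from 11.41 to 12.38. Its probe lay in 10 spots on each array, which were averaged. Its arrays at 48 h in DIFF media read 11.45, 11.45 and 11.33 with siControl and 12.27, 12.44 and 12.43 with siZNF148. The groups were apart, and the difference of 0.97 (SE 0.0858) lay just under the fold limit, past which it came with 75th percentile scaling (1.19) or without siZNF148 replicate 1 (1.02). At 96 h the differences of RB1 were -0.03 in growth media (95% confidence interval -0.23 to 0.17) and -0.06 in DIFF media (-0.24 to 0.12).

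**Figure D3:**
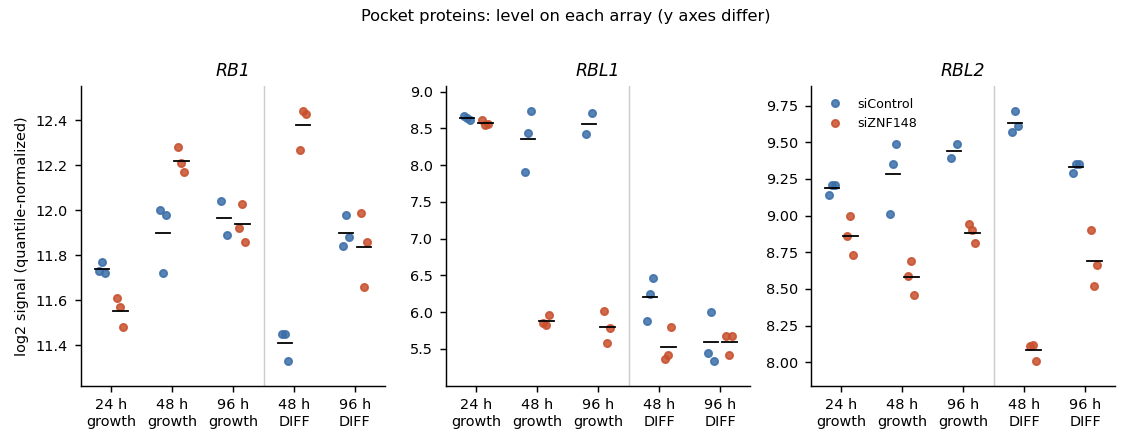
Log2 signal (y axis, a separate scale in each panel) of the 3 pocket proteins by condition (x axis). Points are arrays, blue for siControl and red for siZNF148, and black lines are group means. RBL1 lies between 7.91 and 8.73 at 24 h and on the siControl arrays in growth media, and at or below 6.47 on all other arrays.

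Counted over the 10 genes, 1 was past the threshold upward and 1 downward at 48 h in growth media (CDKN1C and RBL1), where 11.7% of all genes tested were higher and 12.2% lower. At 96 h in growth media 2 were higher (CDKN1A and CDKN1C) and 4 lower (CDKN2A, CDKN2C, CDKN2D and RBL1), against 12.3% and 12.4% of all genes. Of the 10, at 48 h in DIFF media, 2 were higher (CDKN1A and CDKN2D) and 2 lower (CDKN2C and RBL2), against 15.1% and 17.3%. At 96 h in DIFF media 1 was higher (CDKN1A) and 1 lower (CDKN2A), against 10.5% and 12.8%. Between media in siControl cells 1 was higher (CDKN1C) and 2 were lower (CDKN2D and RBL1) at both times, against 7.77% and 8.22% of all genes at 48 h and 6.81% and 8.25% at 96 h. For the difference of the siZNF148 effect between media, 2 were above the threshold (CDKN2D and RBL1) and 1 below it (CDKN1C) at both times, against 8.13% and 9.07% of all genes at 48 h and 5.55% and 6.93% at 96 h. With 10 members, 1 gene is 10% of the list, so a count of 1 was near these shares. Because levels of all groups were known when the members were chosen, the p-values set each difference against the spread between arrays and are not independent evidence.

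Without siControl replicate 1 at 48 h in growth media, 1 member was higher and 2 were lower with siZNF148 (CDKN2A joined RBL1), and the counts between media and for the difference of effects were as before. CDKN2D then differed by -2.41 and RBL1 by -2.38 between media, with differences of effects of 2.59 and 2.03. The siZNF148 differences of the other members at 48 h in growth media were 0.59 for CDKN1A, 0.63 for CDKN1B, 0.56 for CDKN2B, -0.87 for CDKN2C, -0.78 for CDKN2D, 0.37 for RB1 and -0.84 for RBL2, none past the threshold.

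The median difference over the 10 genes was between -0.29 and 0.31 in the 4 siZNF148 comparisons after 24 h, beside -0.06 to -0.03 over all genes tested. The comparisons within growth media and those between media share siControl arrays, so their values are set side by side only. CDKN1A, CDKN1B and CDKN2B had positive differences with siZNF148 in each of the 4 comparisons. That of CDKN1B at 96 h in growth media was 0.09, from overlapping groups. CDKN2A, CDKN2C and RBL2 were lower in each, and RBL1 was lower in 3 and at 0.00 at 96 h in DIFF media. CDKN1C, CDKN2D and RB1 had differences of either sign. In bulk RNA, fewer cells of a type and less RNA per cell cannot be told apart.

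**Figure D4:**
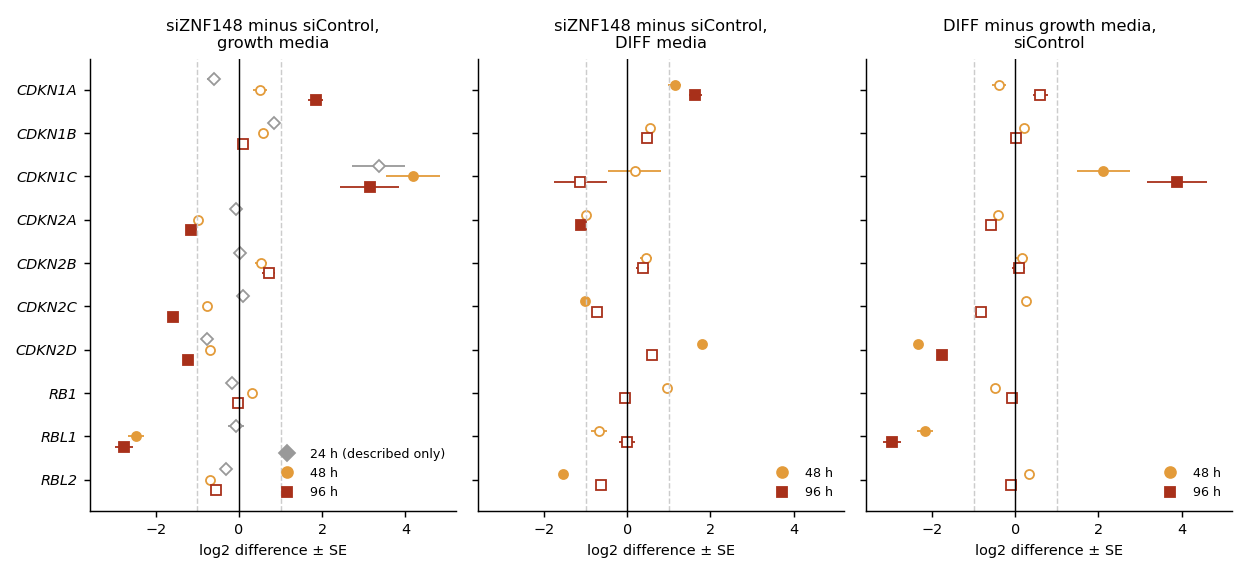
Log2 difference (x axis, with its SE from limma as the bar) for each of the 10 genes (y axis) in 3 kinds of comparison. Filled symbols passed the threshold, open symbols did not, grey diamonds at 24 h are described only, and dashed lines mark 2-fold. CDKN1C is at 4.18 and 3.14 in the growth media panel and at 0.18 and -1.13 in the DIFF media panel.

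Markers of differentiated muscle moved with these comparisons. All 4 were past the threshold upward with siZNF148 at 48 h and 96 h in growth media and at 48 h in DIFF media, and 1 of 4 (TNNC2) at 96 h in DIFF media. The spread that all comparisons share took in siControl replicate 1 at 48 h in growth media, which stood apart in these markers. How many passed at 96 h in DIFF media without that array was not tested. Their mean log2 level was between 4.48 and 4.94 at 24 h in both groups. After 24 h it ranged from 16.17 to 16.68 on siZNF148 arrays, and with siControl from 9.62 to 9.63 at 96 h in growth media, from 9.46 to 11.14 at 48 h and from 13.58 to 13.94 at 96 h in DIFF media. Among markers of other cell types, CD14 fell in all 4 siZNF148 comparisons after 24 h and PECAM1 in all but that at 48 h in growth media, while CDH1 was higher at 96 h in both media, where 1 of 3 siZNF148 arrays in growth media and 2 of 3 in DIFF media were well above background. The summed signal of the 7 tested markers of other cell types was 1640 to 2370 with siControl and 363 to 472 with siZNF148 at 48 h in growth media, 3630 to 3820 against 364 to 438 at 96 h, and at most 633 on any array in DIFF media. Between media in siControl cells at 48 h, 0 of the 4 muscle markers passed the threshold with all arrays and 4 rose without siControl replicate 1. The part of these cell markers in the results was not tested.

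The partners of the 10 genes were described from a list of 23 cyclins, CDKs and their regulators. With siZNF148 in growth media 14 of 23 were lower and 3 higher at 48 h, and 14 lower and 0 higher at 96 h, with medians of -2.12 and -1.38. The 3 higher at 48 h were CDK6, MNAT1 and SKP2, and at 96 h 2 genes were higher at an unadjusted p under 0.05 in limma without the fold limit. In DIFF media 7 were lower and 5 higher at 48 h, and 15 lower and 0 higher at 96 h, with 1 higher at an unadjusted p under 0.05. From growth to DIFF media in siControl cells 12 were lower and 0 higher at each time, with 3 and 5 higher at an unadjusted p under 0.05 at 48 h and 96 h. The median over all genes tested was between -0.06 and 0.02 in all of these, where 6.81% to 15.1% were higher and 8.22% to 17.3% lower. Without siControl replicate 1 at 48 h in growth media the counts of this list at 48 h were the same, 3 higher and 14 lower with siZNF148 and 12 lower between media, with medians of -2.30 and -1.24. Described only, 4 of the 23 were higher and 0 lower with siZNF148 at 24 h, with a median of 0.58. Of all genes tested, 2.46% were higher and 3.08% lower at 24 h.

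CCND1, CCND2 and CCND3 encode the D-type cyclins that activate CDK4 and CDK6. CCND1 differed by -0.79 and -0.50 with siZNF148 in growth media and in DIFF media it fell by 1.31 at 48 h and fell by 2.00 at 96 h. CCND2 changed by -1.38 at 96 h in growth media and by -1.66 and -2.14 in DIFF media. CCND3 passed the threshold only at 96 h in DIFF media, among these 4 comparisons, where its difference was -1.40. CDK4 read 14.08 and 14.21 with siControl and 13.07, 13.01 and 13.20 with siZNF148 at 96 h in growth media, and it fell in all 4 conditions, and in growth media it fell by 1.00 at 48 h and changed by -1.05 at 96 h, while the differences in DIFF media were -1.64 and -1.61. How much of the CDK4 signal came from the added gene was not tested. CDK6 rose at 48 h, by 1.80 in growth media and 1.42 in DIFF media.

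Among the partners of the CIP/KIP inhibitors, CDK2 changed by -2.67 and -2.54 in growth media and differed by -0.55 and -0.62 in DIFF media. CDK2 was well above background on 2 of 3 siZNF148 arrays at 48 h in growth media and on 1 of 3 at 96 h in DIFF media. CCNE1 fell by 1.25 at 48 h in growth media. CCNE2 changed by -3.41 and -3.83 in growth media, and at 96 h in DIFF media it was below background on all siZNF148 arrays and at least 2.21-fold lower. CCNA2, the S-phase cyclin, changed by -2.93 and -4.26 in growth media, with a difference of 0.60 at 48 h in DIFF media. At 96 h in DIFF media the difference of CCNA2 was -2.88, from siZNF148 arrays of which 1 of 3 was well above background. SKP2, which with CKS1B directs p27 to degradation, rose by 1.39 at 48 h in growth media and by 2.23 at 48 h in DIFF media, and fell by 1.09 at 96 h in DIFF media. CKS1B changed by -2.14 and -2.44 in growth media and by -1.36 at 96 h in DIFF media.

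A list of 17 genes held E2F, DP and MuvB subunits together with MYBL2 and FOXM1. Of these, 8 were lower and 1 higher with siZNF148 at 48 h in growth media, against 12.2% and 11.7% of all genes tested. At 96 h there 7 were lower and 1 higher, against 12.4% and 12.3%. Described only, 3 were higher and 0 lower at 24 h, with a median of 0.42, against 2.46% and 3.08% of all genes. In DIFF media 2 were lower and 1 higher at 48 h, against 17.3% and 15.1% of all genes tested. At 96 h there 4 were lower and 2 higher, against 12.8% and 10.5%. The gene higher in each siZNF148 comparison after 24 h was E2F8, a repressor E2F. It read 7.36 and 7.30 with siControl and 9.38, 9.45 and 9.27 with siZNF148 at 96 h in growth media, and rose by 1.87 and 2.04 in growth media and by 4.46 and 4.51 in DIFF media. E2F1, an activator E2F, changed by -3.27 and -3.44 in growth media. FOXM1, a mitotic factor, changed by -3.23 and -4.63 there, and at 96 h in DIFF media it was below background on all siZNF148 arrays and at least 13.1-fold lower. The second gene higher at 96 h in DIFF media was TFDP2, at 1.07, named because its count was small. From growth to DIFF media in siControl cells 7 of the 17 were lower at 48 h and 8 at 96 h, and 0 higher. By an unadjusted p under 0.05 in limma 3 were higher at each time. Of all genes tested, 7.77% and 6.81% were higher there, and 8.22% and 8.25% lower. E2F8 changed by -1.59 between media at 48 h, and by -1.25 without siControl replicate 1 in growth media.

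Of 16 replication genes that pocket proteins are known to repress through E2F, 15 were lower at 48 h and 14 at 96 h in growth media with siZNF148, and 0 higher, with medians of -2.14 and -2.46. At an unadjusted p under 0.05 in limma 1 was higher at 48 h and 0 at 96 h. The same list at 24 h, described only, had 4 higher and 0 lower with siZNF148, and a median of 0.91. Of all genes tested, 2.46% were higher and 3.08% lower at 24 h. From growth to DIFF media in siControl cells 15 of 16 were lower at each time and 0 were higher, also at an unadjusted p under 0.05, with medians of -1.65 and -1.83. Without siControl replicate 1 at 48 h in growth media the counts at 48 h were again 15 lower, with medians of -2.28 with siZNF148 and -1.78 between media. With siZNF148 in DIFF media 4 were lower and 2 higher at 48 h, against 17.3% and 15.1% of all genes tested. At 96 h there 7 were lower and 1 higher, against 12.8% and 10.5%. RRM2, a subunit of ribonucleotide reductase, read 10.79 and 10.42 with siControl and 6.11, 6.19 and 6.46 with siZNF148 at 96 h in growth media, a difference of -4.35. CDT1, a replication licensing factor, fell by 3.56 there.

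**Figure D5:**
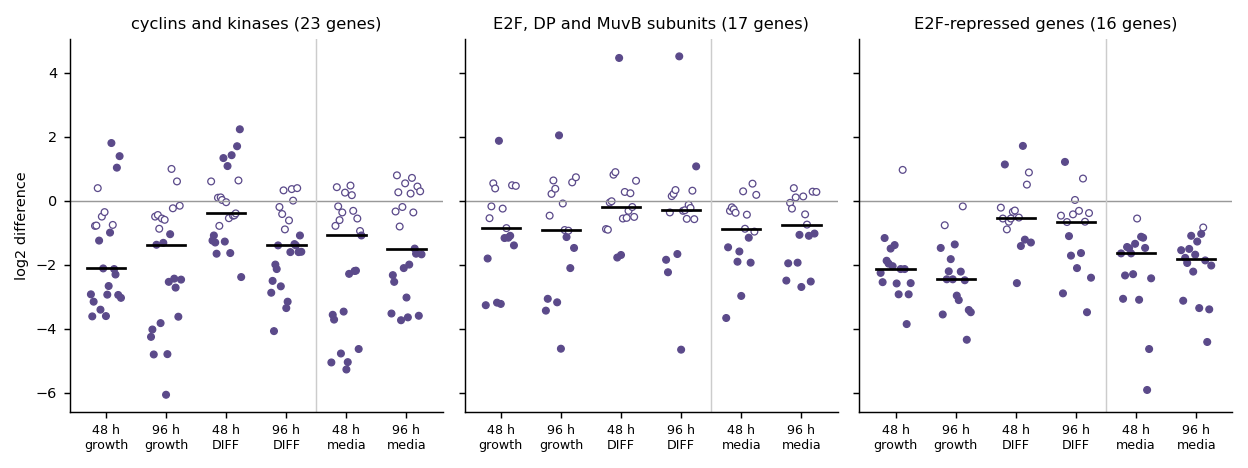
Log2 difference (y axis) of each gene of 3 lists by comparison (x axis): siZNF148 minus siControl in growth and DIFF media, and, right of the grey line, DIFF minus growth media in siControl cells. Each point is a gene, filled where it passed the threshold, and black lines are list medians. In the panel of E2F-repressed genes the medians are -2.14 and -2.46 in growth media and -0.54 and -0.66 in DIFF media.

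Genes beside CDKN1C and beside CDKN2A and CDKN2B in the genome were listed as well, and 6 of 7 had a tested probe. With siZNF148 1 was higher and 1 lower at each time in growth media, 2 higher and 1 lower at 48 h in DIFF media, and 2 lower at 96 h there. Over all genes tested, 10.5% to 15.1% were higher and 12.2% to 17.3% lower in these comparisons. KCNQ1, a potassium channel in the same imprinted region as CDKN1C, was below background on both siControl arrays at 96 h in growth media, and at least 6.8-fold higher with siZNF148. In siControl cells it was at least 5.11-fold higher in DIFF than in growth media at 96 h. At 48 h in siControl growth media KCNQ1 was above background on 1 of 3 arrays, replicate 1. CDKN2B-AS1, the antisense RNA of the CDKN2B locus, changed by -1.23 and -1.47 with siZNF148 in growth media. In DIFF media the differences of CDKN2B-AS1 were -2.77 and -2.30, but 2 of 3 siZNF148 arrays at 48 h and 1 of 3 at 96 h were well above background. On the array the antisense gene has a probe of its own.

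CDKN1A is a p53 target, and 8 further genes of that pathway were listed. With siZNF148 1 was higher and 3 lower at 48 h in growth media, and 1 lower at 96 h. In DIFF media 4 were lower at 48 h and 2 at 96 h. All genes tested had shares of 10.5% to 15.1% higher and 12.2% to 17.3% lower in these comparisons. In limma at an unadjusted p under 0.05, 3 of the 8 were higher at each time in growth media. There 4 were lower at 48 h and 3 at 96 h. By the same measure 1, under the threshold, was higher at each time in DIFF media, with 4 lower at 48 h and 7 at 96 h. FAS, the death receptor, changed by -2.35 and -1.63 in growth media, and in DIFF media it fell by 2.00 at 48 h and fell by 1.22 at 96 h. Described only, 1 of the 8 was higher and 0 lower with siZNF148 at 24 h, with a median of 0.51. Of all genes tested, 2.46% were higher and 3.08% lower at 24 h.

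The patterns most like that of CDKN1C, by Pearson r over the 10 group means, were those of SHD (0.9755), RARRES2 (0.9744), H19 (0.9681), GPM6B (0.9665) and WSCD1 (0.9636). For RBL1 they were LRRC8C (0.991), RALB (0.989), SORD (0.9871), TICRR (0.9866) and IL17RA (0.9866). WSCD1 and LRRC8C were above background on every array in 7 of the 10 groups and TICRR in 4. The points are group means of the same 29 arrays, and the values are given as a description, without a test.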

How the data were processed

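RNA of LHCN-M2 cells was measured on 29 Agilent 1-colour arrays, grouped by the submitters' labels. The authors deposited the background-subtracted intensity of each spot, unscaled, made with Agilent Feature Extraction 10.7.3.1, and a table of normalized log2 values in which every array has the same distribution, used as an alternative. Control and outlier spots were left out, signals were log2-transformed and averaged by probe (58201 probes) and quantile-normalized. The test took in the 38714 probes that 2 or more arrays measured well above background, in R 4.3.3 with limma 3.58.1 (lmFit and eBayes, two-sided) in 1 fit with 10 group means, with Benjamini-Hochberg adjustment. The fit was tested on simulated data. Per array, 41.53% to 56.52% of probes rose well above background. Precision is limited by the number of arrays.

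RefSeq accessions in the files named 31104 probes through a GRCh38.p14 table. Each gene is represented by whichever of its tested probes was brightest on average, which favours probes bright in any group. The 10 members were named always, with 11 fixed partners (the D, E and A cyclins, CDK2, CDK4, CDK6, SKP2 and CKS1B) and, from each other list, the 2 largest rises and falls at 96 h in growth media past the threshold. Any further gene was named after its values were seen. The members and lists were chosen with earlier results of these data known. For bounds, a dim array was set to its own lowest signal that counted as well above background, if its probe was lower.

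The alternatives were 75th percentile scaling, normexp background correction (offset 50), the authors' log2 values, no filter, a stricter filter, the compared arrays only, array weights, trended robust variances, the replicate number and the slide each as a block, the methods' t-test with and without adjustment, probes averaged by gene, no fold threshold, and leaving out each array in turn. Slide as a fixed block, and a fit of the 28 arrays without siControl 48 h growth media replicate 1, were added after seeing the data, as were the gene list counts without that array. No chance test over gene lists was run.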

Additional observations from a re-analysis of the deposited data

Results flagged for a closer look

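The siZNF148 effect differed between media past the threshold, by a contrast of the 4 groups in the limma fit, for 3 of the 10 genes at both times. Of all genes tested, 8.13% were above the threshold and 9.07% below it at 48 h, and 5.55% and 6.93% at 96 h. For CDKN1C the effect in DIFF minus that in growth media was -4.00 at 48 h and -4.28 at 96 h, with adjusted p of 0.00142 and 0.00214. For CDKN2D it was 2.51 at 48 h and 1.83 at 96 h, with adjusted p of 5.9e-13 and 4.73e-10. For RBL1 it was 1.81 at 48 h and 2.77 at 96 h, with adjusted p of 1.72e-05 and 4.06e-07. The effect on CDKN2D passed the threshold downward at 96 h in growth media and upward at 48 h in DIFF media. That on CDKN1C passed it upward in growth media, and its difference of -1.13 at 96 h in DIFF media passed it downward in 6 of 22 alternatives. Groups of 2 or 3 arrays were too small for a test of single outlying arrays. In a fit of the 4 groups at 48 h alone, the CDKN1C contrast of -4.00 missed the threshold (limma adjusted p = 0.0535). Levels of all groups were known when the members were chosen, so these p-values are not independent evidence.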

How the results depend on the processing

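Over the alternatives tried, 581 of 598 values of called members kept direction and call, 17 lost the call and 0 changed sign. The 598 include the setting that drops the fold limit, which cannot lose a call. They also include CDKN1C at 24 h, which is described only. Of 1402 values of members not called, 50 gained a call, 14 of them without the setting that drops the fold limit. With 75th percentile scaling 1 member passed at 96 h in DIFF media in place of 2. With no fold threshold the counts of members past the threshold were 10 at 48 h in growth media, 9 and 7 at 48 h and 96 h in DIFF media, 7 and 6 between media, and 6 and 5 for the difference of the siZNF148 effect. The shares of all genes at that setting are not given here, so nothing is read from these counts. With the methods' t-test and Benjamini-Hochberg adjustment 1 passed at 48 h in growth media. Leaving out 1 array gave counts of 2 to 3 at 48 h in growth media and between media at 48 h, and 4 to 6 at 48 h in DIFF media. The causes were not tested.

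Replicate numbers did not pair the arrays: the correlation of same-numbered deviations was between -0.143 and 0.124. The numbers are those of the titles. For siZNF148 at 48 h in growth media the descriptions number the arrays otherwise and share 1 number with siControl (correlation 0.109), so no block could be fitted with them there, and the block result at 48 h depends on the titles. With the replicate block 1 member passed at 48 h in growth media and 0 between media at 96 h, where CDKN1C (adjusted p = 0.0523), CDKN2D (0.0549) and RBL1 (0.0523) kept their directions.

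All 58 changes of sign were of differences not called either way. With 75th percentile scaling CDKN2A was 0.03 and CDKN2B 0.00 at 24 h, RB1 0.00 at 96 h in DIFF media, CDKN1B -0.06 between media at 96 h, and the difference of effects was 0.09 for CDKN1B and 0.13 for CDKN2A at 48 h and 0.04 for RB1 at 96 h. With normexp CDKN1B was -0.03 between media at 96 h, and the difference of effects 0.01 for CDKN2A and 0.02 for CDKN2B at 48 h and 0.05 for RBL2 at 96 h. RBL1 at 96 h in DIFF media was 0.00 in the authors' values, -0.01 with slide as a random block and -0.04 with slide as a fixed block. Array weights gave CDKN2B -0.06 at 24 h, and differences of effects of 0.10 for CDKN2A at 48 h and 0.01 for RB1 at 96 h. RB1 at 96 h in growth media was 0.01 with the replicate block, 0.00 with slide as a random block and 0.06 with slide fixed. Slide fixed also gave 0.04 for RB1 and 0.01 for RBL2 between media at 96 h, and 0.05 for the CDKN1A difference of effects at 96 h. The mean of a gene's probes gave RBL1 0.01 at 24 h, and differences of effects of 0.01 for CDKN1B and 0.05 for CDKN2A at 48 h and -0.03 for CDKN2A at 96 h.

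Leaving out 1 array at a time, the ranges that crossed 0 were -0.14 to 0.12 for CDKN2B at 24 h, -0.11 to 0.45 for CDKN1C at 48 h in DIFF media, -0.11 to 0.05 for RB1 at 96 h in growth media, and -0.14 to 0.03 for RB1 and -0.13 to 0.20 for RBL1 at 96 h in DIFF media. Between media at 96 h they were -0.07 to 0.09 for CDKN1B and -0.15 to 0.01 for RB1. For the difference of effects they were -0.15 to 0.06 for CDKN1B, -0.10 to 0.13 for CDKN2A and -0.20 to 0.08 for CDKN2B at 48 h, and -0.01 to 0.11 for CDKN2A and -0.11 to 0.06 for RB1 at 96 h.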
